A study of Mus musculus with 4 samples.

Results

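The nucleolar ribosome biogenesis factors examined here were 61 genes chosen by symbol. They were the genes named Nop, Nol, Utp and Rrp with a number, the RNA polymerase I subunits Polr1a to Polr1h, Imp3 and Imp4, and single names such as Fbl, Ncl, Npm1, Bop1 and Dkc1. The deposited tables held 40213 gene symbols. Of the 61 factors, 59 passed the expression filter (1 scaled CPM or more in 2 or more of the libraries) and were tested. Nol3 and Nol4 were listed at 0 in all 4 libraries. All 4 libraries were made from RAW264.7, a macrophage line of the mouse, cultured for 48 h with test material. Sample titles gave 2 libraries of cells with material named Gel and 2 with CuNZ@Gel, and CuNZ is not spelled out in the labels. The protocol text mentions CuNZ@Gel alone, so that the treatment of the Gel cells rests on titles. The series concerns a sprayable hydrogel with a nanozyme, meant for wounds in diabetes. Whether the replicates were separate cultures is not stated. The p-values here reflect how far these libraries spread, and that spread may be technical.

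Ribosomes are made in the nucleolus. RNA polymerase I copies the ribosomal DNA into a long precursor RNA, small nucleolar ribonucleoproteins (snoRNPs) modify it at chosen bases, and assembly factors fold and cut it into the RNAs of the small and the large subunit. Many of these factor genes are known targets of the transcription factor MYC and are highly expressed in growing cells, and activated macrophages are known to change their rate of ribosome production.

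Levels are given as scaled CPM, which is CPM (reads of a gene scaled to a common library total) divided by 1 factor per library, and were not divided by gene length. A log2 change is CuNZ@Gel minus Gel on the log2(scaled CPM + 1) scale, with its standard error (SE). Recovered library totals ranged from 13718000 to 14882000 reads. Of 10 macrophage markers, 9 reached 1 scaled CPM in at least 2 libraries, and their summed level was 5628 and 5804 in Gel and 8891 and 8642 in CuNZ@Gel. Markers of fibroblasts, epithelium, lymphocytes and neutrophils stayed below that level in at least 3 of the 4 libraries, and of 4 endothelial markers Pecam1 alone passed it. Within a group, libraries correlated across the tested genes with a Pearson r of 0.995, and no pair agreed within sampling noise.

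More of the nucleolar factors were lower than higher in CuNZ@Gel. Of the 59 tested, 29 were lowered and 13 raised at a limma adjusted p under 0.05, and 17 did not pass. Of all tested genes 67.1% were called in either direction, so that a call by itself was common. Lowered genes made up 49.2% of the factors against 34.8% of all 11588 tested genes, and raised genes made up 22.0% against 32.2%. The median log2 change of the factors was -0.13, beside -0.029 over all tested genes, with a range from -1.56 for Nop53 to 1.06 for Utp14b. A log2 change of 1 or more in size was seen for 7 lowered factors and 1 raised one, where all tested genes gave 6.13% and 7.06%. Both CuNZ@Gel libraries lay below both Gel libraries for 32 factors and above them for 19 (43.5% and 39.8% of all tested genes), and the groups overlapped for 8. Over all tested genes, the groups stood apart in 83.2% of cases. Replicates lay close together: the median distance between the 2 libraries of a group was 0.060 in Gel and 0.086 in CuNZ@Gel on the log2 scale. With scaling by total reads alone, the median change of all tested genes shifted by 0.18, and the factors then gave 24 lowered and 21 raised genes with a median of 0.05. That was 40.7% lowered and 35.6% raised, beside 24.7% and 43.4% of all tested genes under the same scaling. Raised genes were 31.0% of the factors called with the deposited scaling and 46.7% with total reads only.

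**Figure D1:**
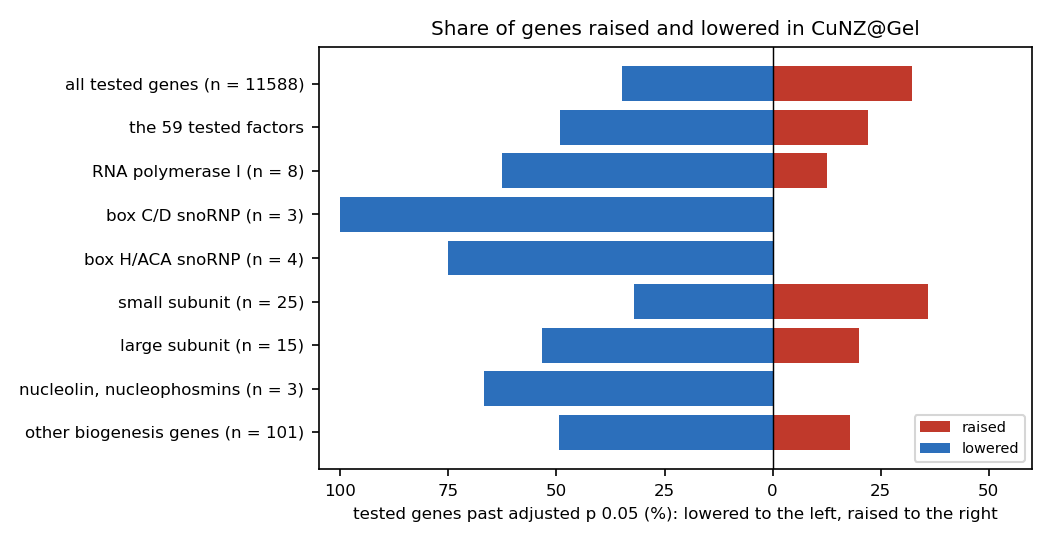
Share of tested genes past an adjusted p of 0.05 in CuNZ@Gel against Gel, in percent, with lowered genes to the left of 0 and raised genes to the right. The top bar shows all 11588 tested genes, the next the 59 nucleolar factors, and the others the role groups and 101 further ribosome biogenesis genes. The small subunit group is the one with more raised (36.0%) than lowered (32.0%) genes.

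The 61 factors together took 0.898% and 0.868% of the reads in the Gel libraries and 0.677% and 0.710% in the CuNZ@Gel libraries. Npm1 alone held 0.297% and 0.291% with Gel and 0.133% and 0.143% with CuNZ@Gel. Without Npm1 and Ncl, the other factors took 0.450% ± 0.0111 of reads with Gel and 0.397% ± 0.0108 with CuNZ@Gel (SD, n = 2 each). The lower share of the whole set was therefore mostly the lower share of Npm1.

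Of the 8 RNA polymerase I subunits chosen by symbol, 5 were lowered and 1 was raised. That was 62.5% and 12.5%, beside 34.8% and 32.2% of all tested genes. Polr1a, the largest catalytic subunit, stood at 52.0 and 53.9 scaled CPM in the Gel libraries and 76.3 and 71.9 in the CuNZ@Gel libraries. Both CuNZ@Gel values were above both Gel values, and the level rose 1.40-fold (log2 change 0.48 ± 0.077 SE, adjusted p = 1.46e-05). Once values were corrected for RNA length and GC content, Polr1a did not pass (log2 change 0.10, adjusted p = 0.164). Polr1b, the second catalytic subunit, was at 19.5 and 16.8 in Gel and 20.8 and 20.1 in CuNZ@Gel and did not pass the test (log2 change 0.17, adjusted p = 0.209). Polr1c and Polr1d form the assembly platform that RNA polymerase I shares with RNA polymerase III. Polr1c went from 62.3 and 53.6 to 23.8 and 28.6 scaled CPM, a 2.21-fold drop with no overlap (log2 change -1.12 ± 0.10 SE, adjusted p = 3.72e-09). Polr1d went from 175 and 168 to 105 and 115, 1.56-fold lower (log2 change -0.64 ± 0.067 SE, adjusted p = 4.54e-08).

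The remaining polymerase subunits examined here sit at the edge of the enzyme. Polr1h, a small zinc-binding subunit, was at 24.1 and 24.8 scaled CPM in Gel and 12.5 and 13.3 in CuNZ@Gel and fell 1.89-fold (log2 change -0.87, adjusted p = 8.94e-07). Polr1f, part of the stalk, fell from 110.3 and 116 to 76.8 and 72.1 (log2 change -0.60, adjusted p = 2.53e-07). Of the subunit pair Polr1e and Polr1g, Polr1g fell by 0.29 on the log2 scale (adjusted p = 0.0199), whereas Polr1e, at 19.1 and 18.8 in Gel and 18.3 and 16.2 in CuNZ@Gel, did not pass (log2 change -0.13, adjusted p = 0.328). The call of Polr1g depended on single libraries: its log2 change was -0.15 without CuNZ@Gel replicate 1 (adjusted p = 0.280) and -0.26 without Gel replicate 1 (adjusted p = 0.0848). In each library the ratio of Polr1c to Polr1a showed the split within the enzyme. It was 1.20 and 0.996 in Gel and 0.312 and 0.398 in CuNZ@Gel, a description of counts that are not per length. With libraries scaled by total reads only, the same 8 subunits gave 4 lowered and 2 raised, where all tested genes gave 24.7% and 43.4%.

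**Figure D2:**
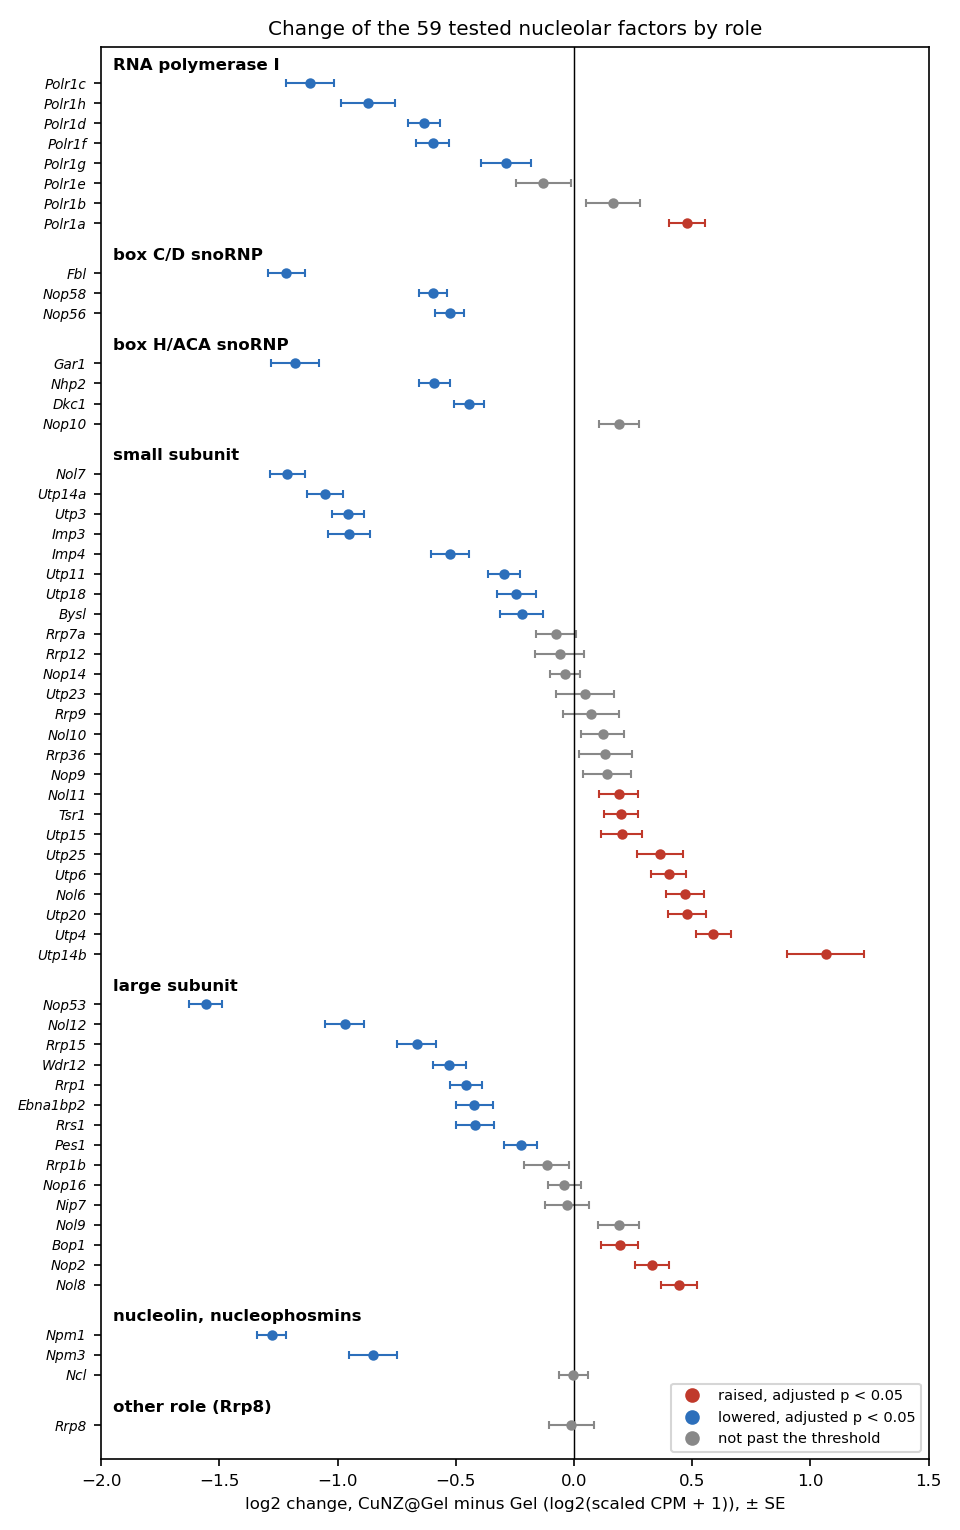
Log2 change of each of the 59 tested factors, CuNZ@Gel minus Gel, with the limma SE as bars, grouped by role and sorted by size within a group. Blue points were lowered and red points raised at an adjusted p under 0.05, and grey points did not pass. Polr1a is the single raised polymerase subunit at 0.48, the box C/D proteins all lie to the left of 0, and the small subunit group spreads from -1.21 for Nol7 to 1.06 for Utp14b.

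Box C/D snoRNPs are particles that methylate ribosomal RNA on the ribose. Their core proteins among the factors were lowered in 3 of 3 cases. Of all tested genes 34.8% were lowered. Fbl encodes fibrillarin, the methyltransferase itself. Its level was 224 and 193 scaled CPM in Gel and 82.8 and 95.5 in CuNZ@Gel. The CuNZ@Gel libraries were both below the Gel libraries, and Fbl fell 2.34-fold (log2 change -1.22 ± 0.079 SE, adjusted p = 1.92e-11). Nop56 and Nop58, the paired scaffold proteins of the same particle, moved less far. Nop56 went from 306 and 300.3 to 209.7 and 211 (log2 change -0.53 ± 0.060 SE, adjusted p = 1.16e-07). Nop58 went from 337 and 335 to 216 and 227 (log2 change -0.60 ± 0.060 SE, adjusted p = 2.03e-08). Neither pair of libraries overlapped the other. The ratio of Fbl to Nop56 within a library was 0.733 and 0.643 in Gel and 0.395 and 0.453 in CuNZ@Gel. Nop56 and Nop58 carry snoRNA genes in their introns, and the annotation places small RNA genes over exons of both, so that some reads may belong to either.

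Box H/ACA snoRNPs convert uridine to pseudouridine. Of their 4 core proteins 3 were lowered, where all tested genes gave 34.8% lowered and 32.2% raised. Gar1 was at 49.5 and 48.4 scaled CPM in Gel and 19.0 and 23.2 in CuNZ@Gel, with no overlap, and fell 2.32-fold (log2 change -1.18 ± 0.10 SE, adjusted p = 1.88e-09). Dkc1, the pseudouridine synthase dyskerin, which is also part of telomerase, fell from 171 and 167 to 123 and 125 (log2 change -0.44 ± 0.064 SE, adjusted p = 3.36e-06). Nhp2 fell from 148 and 139 to 94.3 and 95.5 (log2 change -0.59, adjusted p = 1.31e-07). Nop10, the smallest of the 4 proteins, was at 43.9 and 40.2 in Gel and 47.8 and 48.4 in CuNZ@Gel. Its libraries did not overlap, but it did not pass the test (log2 change 0.19, adjusted p = 0.0545). It was called raised with libraries scaled by total reads only (log2 change 0.38, adjusted p = 6.67e-04) and once values were corrected for RNA length and GC content (log2 change 0.41, adjusted p = 1.04e-04).

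The small subunit factors were raised in 36.0% and lowered in 32.0% of cases, close to the 32.2% and 34.8% of all tested genes. They build the processome, the large particle that forms on the start of the precursor RNA, and the later pre-ribosome of the small subunit. Of 25 tested factors, 9 were raised, 8 were lowered and 8 did not pass, with a median log2 change of 0.07. With total reads only, 13 were raised and 5 lowered, where all tested genes gave 43.4% and 24.7%. Nol7 had the largest drop among them. Nol7 was at 122 and 132 scaled CPM in Gel and 52.5 and 55.8 in CuNZ@Gel and fell 2.34-fold (log2 change -1.21 ± 0.074 SE, adjusted p = 7.01e-12). Utp3 went from 131 and 130.4 to 66.7 and 67.0, 1.95-fold lower (log2 change -0.96, adjusted p = 1.05e-10). Imp3, a partner protein of the U3 snoRNA, went from 73.2 and 71.3 to 33.7 and 40.4 (log2 change -0.95, adjusted p = 6.65e-09), and its partner Imp4 from 64.8 and 64.7 to 43.2 and 46.2 (log2 change -0.53, adjusted p = 6.91e-06). None of these 4 genes had overlapping groups.

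Among the raised small subunit factors, Utp4, whose human form is also known as cirhin, was at 58.8 and 63.8 scaled CPM in Gel and 91.3 and 93.9 in CuNZ@Gel. It rose 1.51-fold with no overlap (log2 change 0.59 ± 0.075 SE, adjusted p = 6.14e-07). Utp20, a very long helical repeat protein, rose from 57.1 and 56.7 to 85.3 and 74.3 (log2 change 0.48, adjusted p = 2.30e-05). Nol6 rose from 42.7 and 41.3 to 59.5 and 57.4 (log2 change 0.47, adjusted p = 3.50e-05), and Utp6 from 70.4 and 65.3 to 89.9 and 89.5 (log2 change 0.40, adjusted p = 6.67e-05). Utp25 rose by 0.36 on the log2 scale (adjusted p = 0.00242). Both CuNZ@Gel libraries stood above both Gel libraries for each of these 5 genes.

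Other small subunit calls were small. Tsr1, a GTPase-like protein of late maturation, rose by 0.20, Utp15 by 0.20 and Nol11 by 0.19 (adjusted p = 0.0196, 0.0461 and 0.0481). Each of these depended on single libraries. The log2 change of Tsr1 stayed near 0.20 with 1 library left out, and its adjusted p was 0.0519 without CuNZ@Gel replicate 2, 0.0923 without Gel replicate 1 and 0.0966 without Gel replicate 2. Utp15 was at 0.09 without CuNZ@Gel replicate 2 (adjusted p = 0.450), 0.22 without Gel replicate 1 (adjusted p = 0.0789) and 0.18 without Gel replicate 2 (adjusted p = 0.167). Nol11 was at 0.16 without CuNZ@Gel replicate 2 (adjusted p = 0.142) and 0.10 without Gel replicate 1 (adjusted p = 0.439). Utp11, Utp18 and Bysl fell by 0.30, 0.24 and 0.22. Utp18 did not pass without Gel replicate 2 (log2 change -0.23, adjusted p = 0.0798). Bysl passed only without Gel replicate 2 among the 4 fits with 1 library left out, at -0.22 without CuNZ@Gel replicate 1 (adjusted p = 0.0777), -0.22 without CuNZ@Gel replicate 2 (adjusted p = 0.0740) and -0.16 without Gel replicate 1 (adjusted p = 0.284).

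Nop9, Nol10, Rrp36, Rrp7a, Rrp12, Rrp9, Nop14 and Utp23 did not pass. Their log2 changes lay between -0.076 and 0.14. Nol10, at 42.7 and 43.0 in Gel and 50.6 and 43.2 in CuNZ@Gel, passed without CuNZ@Gel replicate 2 (log2 change 0.23, adjusted p = 0.0418). Nop14, one of the most abundant small subunit factors by reads, was at 142 and 142 scaled CPM in Gel and 135 and 141 in CuNZ@Gel (log2 change -0.038, adjusted p = 0.614), and with total reads only it was called raised at 0.15 (adjusted p = 0.0466). With length and GC corrected for, Rrp36 and Rrp9 were called raised, at 0.46 and 0.44 (adjusted p = 0.00100 and 0.00132).

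Utp14a and its intronless copy Utp14b moved in opposite directions. Utp14a was at 97.2 and 95.3 scaled CPM in Gel and 47.4 and 44.4 in CuNZ@Gel and fell 2.10-fold (log2 change -1.05 ± 0.076 SE, adjusted p = 1.09e-10). Utp14b, known for its role in male germ cells, was at 5.07 and 3.97 in Gel and 9.32 and 11.8 in CuNZ@Gel and rose 2.33-fold (log2 change 1.06 ± 0.16 SE, adjusted p = 6.91e-06). The ratio of Utp14b to Utp14a within a library was 0.0522 and 0.0417 in Gel and 0.197 and 0.266 in CuNZ@Gel. The value of Utp14b is uncertain, because its annotated exons overlap those of Acsl3, a fatty acid ligase gene on the same strand. Acsl3 itself was at 55.4 and 60.6 in Gel and 64.3 and 60.5 in CuNZ@Gel (scaled CPM) and did not pass (log2 change 0.10, adjusted p = 0.261). Utp14b also had the widest distance between replicates of all factors in both groups, 0.29 in Gel and 0.31 in CuNZ@Gel on the log2 scale.

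**Figure D3:**
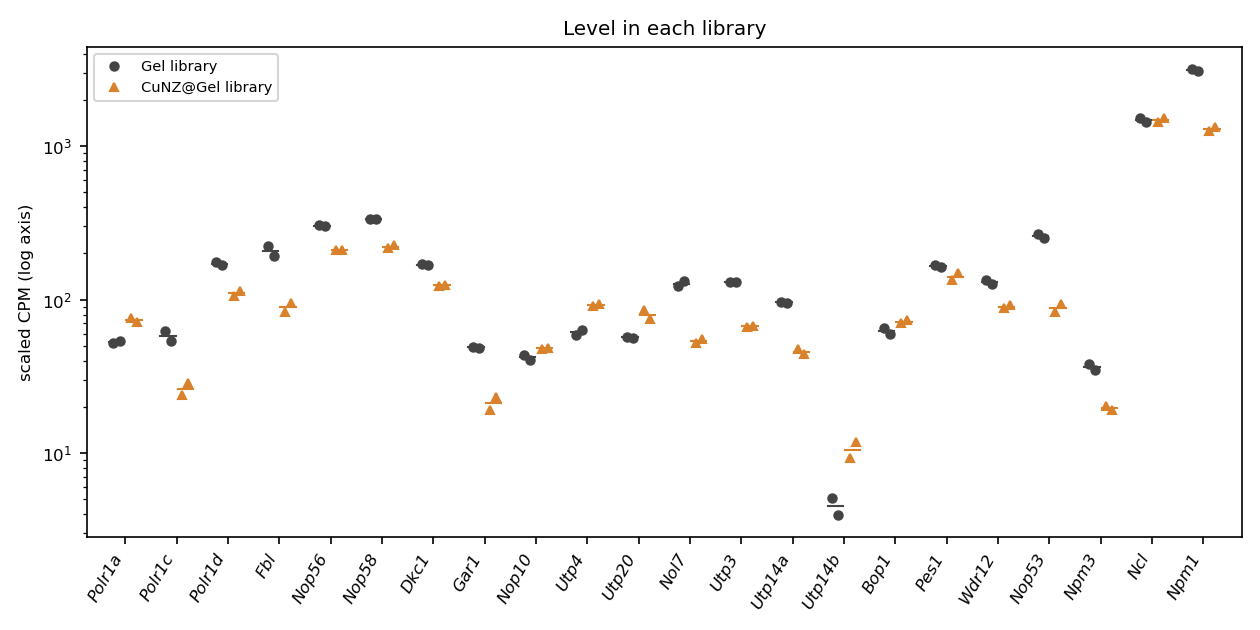
Scaled CPM of 22 factors in each library on a log axis, with 2 Gel libraries as grey circles and 2 CuNZ@Gel libraries as orange triangles, and a short line for each group's mean. Levels are not per gene length, so genes should be compared between groups and not with each other. The Npm1 symbols lie at 3168 and 3110 in Gel and at 1249 and 1337 in CuNZ@Gel, while those of Ncl overlap.

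Of 15 large subunit factors, 8 were lowered and 3 raised. That was 53.3% and 20.0%, beside 34.8% and 32.2% of all tested genes. Nop53, a scaffold protein that brings the RNA exosome to the precursor of the large subunit, had the largest drop of all 59 factors. It was at 269 and 254 scaled CPM in Gel and 83.0 and 93.5 in CuNZ@Gel and fell 2.96-fold (log2 change -1.56 ± 0.070 SE, adjusted p = 5.01e-14). Nol12, a factor of precursor cutting, went from 82.2 and 75.6 to 37.9 and 41.7, 1.98-fold lower (log2 change -0.97, adjusted p = 1.57e-09). Rrp15 went from 63.0 and 61.6 to 38.8 and 39.0 (log2 change -0.67, adjusted p = 3.28e-07). The groups of these 3 genes did not overlap. Rrp1, Ebna1bp2 and Rrs1 fell by 0.46, 0.42 and 0.42 on the log2 scale (adjusted p = 5.04e-06, 6.09e-05 and 1.36e-04). Rrs1 is known to help bring the 5S RNA particle into the large subunit.

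The 3 proteins of the PeBoW complex, Pes1, Bop1 and Wdr12, which act together in cutting the large subunit RNA, did not all move in 1 direction. Wdr12 went from 135 and 126 scaled CPM in Gel to 88.1 and 92.0 in CuNZ@Gel (log2 change -0.53 ± 0.069 SE, adjusted p = 9.63e-07). Pes1 was at 168 and 163 in Gel and 133 and 149 in CuNZ@Gel and fell by 0.23 (adjusted p = 0.00606). Bop1 was at 65.4 and 59.8 in Gel and 70.0 and 73.4 in CuNZ@Gel and rose by 0.19 (adjusted p = 0.0331). Groups did not overlap for any of the 3, but the calls of Pes1 and Bop1 depended on single libraries. Pes1 was at -0.15 without CuNZ@Gel replicate 1 (adjusted p = 0.0945) and -0.20 without Gel replicate 1 (adjusted p = 0.0607). Bop1 was at 0.16 without CuNZ@Gel replicate 2 (adjusted p = 0.131) and 0.13 without Gel replicate 2 (adjusted p = 0.299). The ratio of Bop1 to Wdr12 within a library was 0.485 and 0.475 in Gel and 0.794 and 0.798 in CuNZ@Gel.

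Nop2 and Nol8 were the other raised large subunit factors. Nop2, an RNA methyltransferase and a known proliferation antigen, went from 76.5 and 76.5 to 95.4 and 97.4 scaled CPM (log2 change 0.33, adjusted p = 3.19e-04). Nol8 went from 62.3 and 64.6 to 89.3 and 84.1 (log2 change 0.44, adjusted p = 2.17e-05). Nol9, the kinase that acts on the cut spacer RNA, Rrp1b, Nop16 and Nip7 did not pass, with log2 changes of 0.19, -0.12, -0.041 and -0.029. After the length and GC correction Nop16 was called raised, at 0.14 (adjusted p = 0.0461), and Rrp1b lowered, at -0.25 (adjusted p = 0.0153).

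Nucleolin and the nucleophosmins, abundant histone and RNA chaperones of the nucleolus, differed from one another. Npm1, nucleophosmin, was at 3168 and 3109.6 scaled CPM in Gel and 1249 and 1337 in CuNZ@Gel. Both CuNZ@Gel libraries lay far below both Gel libraries, and Npm1 fell 2.43-fold (log2 change -1.28 ± 0.063 SE, adjusted p = 2.42e-13). Npm3, its smaller relative, went from 38.1 and 34.6 to 20.3 and 19.0 and fell 1.85-fold (log2 change -0.85 ± 0.10 SE, adjusted p = 2.45e-07). Ncl, nucleolin, was at 1535 and 1438 in Gel and 1444 and 1522 in CuNZ@Gel, with overlapping groups and a log2 change of -0.0030 ± 0.062 SE (adjusted p = 0.970). Ncl was called raised with total reads only (log2 change 0.19, adjusted p = 0.0141) and lowered after the length and GC correction (log2 change -0.45, adjusted p = 2.81e-06). That correction gave Ncl the 8202 nt of its longest annotated coding transcript. Whether this transcript was the one expressed was not measured, so the corrected value of Ncl is uncertain. The ratio of Npm1 to Ncl within a library was 2.06 and 2.16 in Gel and 0.865 and 0.878 in CuNZ@Gel, on counts not divided by length. Npm1 has processed copies elsewhere in the mouse genome, and its reads may have been split in counting. Ncl carries snoRNA genes in its introns.

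Of the factors grouped by name alone, Rrp8, a methyltransferase of the large subunit RNA that is also known for silencing ribosomal DNA, was at 28.5 and 29.4 in Gel and 28.7 and 28.8 in CuNZ@Gel (scaled CPM), with overlapping groups (log2 change -0.011, adjusted p = 0.928). Nol3, an inhibitor of apoptosis despite its symbol, and Nol4 had no reads. A count of 0 allows a level of up to 0.234 scaled CPM in the shallowest library.

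A further 101 ribosome biogenesis genes that the symbols above do not cover were examined in the same fit: 50 were lowered, 18 raised and 33 did not pass, with a median log2 change of -0.19. That is 49.5% lowered and 17.8% raised, beside 34.8% and 32.2% of all tested genes. With total reads only, 33 were lowered and 25 raised, again beside 24.7% and 43.4% of all tested genes. Among 9 factors of ribosomal DNA transcription, 5 were lowered and 1 was raised (55.6% and 11.1%). Tcof1, the nucleolar protein treacle, which works with RNA polymerase I, went from 260.2 and 269 to 109 and 116 scaled CPM (log2 change -1.23, adjusted p = 5.48e-13). Taf1d and Taf1b, of the selectivity factor that recruits the polymerase, fell by 1.02 and 0.88. Rrn3, the initiation factor that links the polymerase to that complex, was the raised one, from 45.6 and 43.2 to 63.0 and 64.3 (log2 change 0.51, adjusted p = 9.59e-06).

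In snoRNP assembly, 6 of 9 genes were lowered and none raised. That was 66.7% lowered, beside 34.8% of all tested genes. Ruvbl2, an ATPase of the assembly machinery, fell by 0.73, Nufip1, an assembly scaffold, by 0.58, and Snu13, a core protein shared by box C/D particles and the spliceosome, by 0.46. Of the 14 genes of the RNA exosome and its helpers, 8 were lowered and 1 was raised. That was 57.1% and 7.14%, beside 34.8% and 32.2% of all tested genes. The exosome core subunits Exosc3, Exosc5 and Exosc8 fell by 1.08, 0.97 and 0.54, and Mtrex, the helicase that feeds RNA to the exosome, rose by 0.21 (adjusted p = 0.0285). Mtrex did not pass once corrected for length and GC (log2 change 0.056, adjusted p = 0.474).

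Among 34 other genes of the small subunit pathway, 19 were lowered and 8 raised. That was 55.9% and 23.5%, beside 34.8% and 32.2% of all tested genes. The cutting factor Nob1, the methyltransferase Emg1 and the kinase Riok3 had the smallest p-values. Nob1 fell from 49.7 and 52.2 to 24.9 and 23.4 scaled CPM and Emg1 by 0.79, whereas Riok3 rose from 86.2 and 85.7 to 155 and 156. The other raised genes were Bms1 (0.73), Dhx37 (0.51), Pdcd11 (0.36), Pwp2 (0.33), Heatr1 (0.31), Riok2 (0.30) and Pno1 (0.23). With the same correction Pdcd11, Heatr1 and Riok2 did not pass, at 0.11, -0.021 and 0.19 (adjusted p = 0.240, 0.752 and 0.0607). Among 35 other genes of the large subunit pathway, 12 were lowered and 8 raised. That was 34.3% and 22.9%, so the lowered share was close to that of all tested genes (34.8%). Mdn1, a giant ATPase that strips assembly factors from the large subunit, rose from 49.0 and 45.3 to 126 and 113 (log2 change 1.33, adjusted p = 4.13e-12). Noc3l, Senp3, Nvl, Tex10, Efl1, Gnl3l and Ddx18 rose by 0.79, 0.41, 0.39, 0.38, 0.36, 0.25 and 0.21. The same correction moved Mdn1 to 0.71 (adjusted p = 1.01e-08) and ended the calls of Nvl and Gnl3l, at -0.061 and 0.013 (adjusted p = 0.422 and 0.896). Nsa2 and Wdr74 fell by 0.69 and 0.88.

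RNAs of the nucleolus gave a separate readout. Rmrp, the RNA of the RNase MRP particle that cuts the precursor between the subunits, went from 28.3 and 25.2 to 7.75 and 7.99 scaled CPM (log2 change -1.64, adjusted p = 1.92e-10). Rpph1, the RNA of the related RNase P, went from 18.1 and 19.6 to 6.25 and 5.76 (log2 change -1.50, adjusted p = 3.05e-09). Both fell with no overlap. They are short RNAs, and after the length and GC correction Rmrp stood at -0.90 and Rpph1 at -0.66 (adjusted p = 1.21e-06 and 2.93e-04). Snord3a, a U3 snoRNA gene, was at 3.70 and 2.53 in Gel and 1.89 and 2.79 in CuNZ@Gel and did not pass (log2 change -0.30, adjusted p = 0.194). Snord118, Snord13 and Snord14a stayed under 1 scaled CPM and were not tested. Transcripts with sequence like ribosomal RNA moved down with the lowered factors. Gm26917 made up 11.8% ± 0.0777 of reads with Gel and 7.14% ± 0.0561 with CuNZ@Gel. Lars2, whose annotation holds such a stretch, made up 0.831% ± 0.00432 and 0.470% ± 0.000916 (SD, n = 2 each). AY036118 fell by 0.90 on the log2 scale. Precursor and mature ribosomal RNA cannot be told apart in these values, their share depends on how ribosomal RNA was handled in the library, and their part in the changes above was not tested. With libraries scaled by total reads without Gm26917 and Lars2, the factors gave 25 lowered and 18 raised genes with a median of -0.027, where 28.3% of all genes were lowered and 38.3% raised.

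The direction of a factor's change went with the length of its RNA. Of the 59 tested factors, 56 had a transcript in the annotation. Across them the log2 change correlated with the log2 length of the longest coding transcript at a Pearson r of 0.483 and a Spearman rho of 0.473, and over all 11100 tested genes with a transcript at 0.308 and 0.366. These are descriptions across genes, which share the libraries. Among the 28 shorter factors, at most 2923 nt long, 19 were lowered and 3 raised, with a median of -0.45. Among the 28 longer ones 7 were lowered and 10 raised, with a median of 0.059. Over all tested genes of at most 2941.5 nt, the median length of the factors, 48.4% were lowered and 20.1% raised, and over longer ones 23.2% and 42.8%. With the length of the coding sequence alone, r was 0.479 over 55 factors. Which transcript was expressed was not measured.

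**Figure D4:**
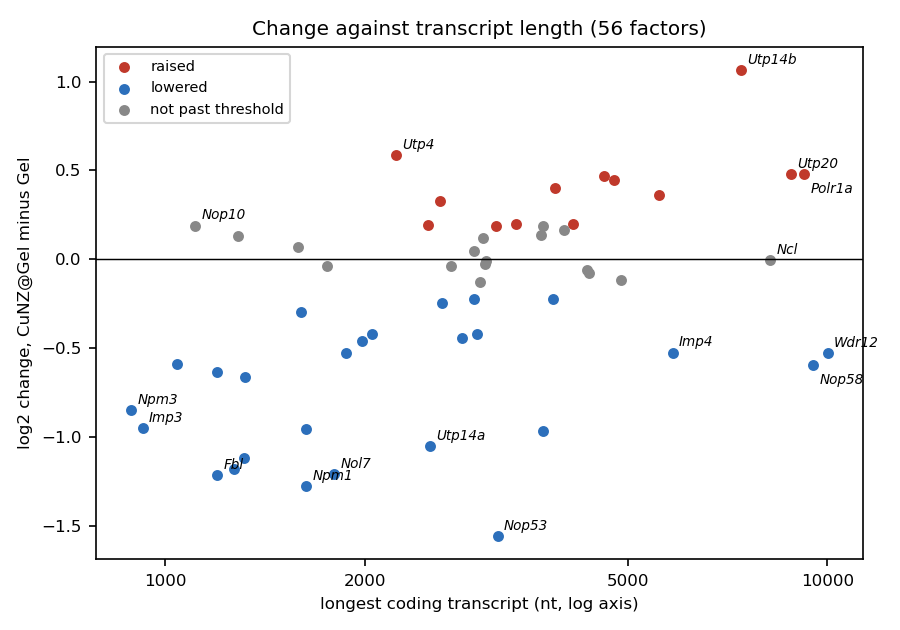
Log2 change, CuNZ@Gel minus Gel, of 56 factors against the length of the longest annotated coding transcript in nt, on a log axis, with 1 point per factor coloured by its call. Raised factors (red) lie mostly to the right and lowered ones (blue) to the left, with Nop53, Imp4, Nop58 and Wdr12 as long lowered ones.

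With each library corrected for length and GC content, all 26 lowered factors with a corrected value were still lowered, and 7 of 13 raised ones were still raised. Polr1a, Utp20 and Utp25 then stood at 0.10, 0.051 and 0.13 (adjusted p = 0.164, 0.497 and 0.228), and Nol11, Tsr1 and Utp15 did not pass either. Fbl, Npm1, Nop53 and Utp14a were at -0.86, -1.19, -1.55 and -1.04, and among the raised factors Utp4, Nol6 and Utp14b at 0.66, 0.43 and 0.66. The corrected factors gave 28 lowered and 11 raised genes with a median of -0.16. With the longest transcript of any kind in place of the longest coding one they gave 28 and 13. In the first of these corrections all genes gave 35.5% and 30.1%.

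Promoters were searched for 3 motifs, chosen with the changes above known, the first being the E-box CACGTG that MYC binds. RefSeq promoter windows, which hold the 250 bases before and the 50 bases after an annotated start, were found by symbol for 46 of the 61 factors, all of them tested. The motif, which reads the same on both strands, was present for 11 of these 46 (23.9%), against 8.09% of all 27025 genes with a window and 12.1% of tested genes with one. Of the 11, 7 were raised, 3 lowered and 1 did not pass, with a median log2 change of 0.20. Of the 35 without it, 3 were raised and 18 lowered, with a median of -0.22. Over all tested genes the shares were not split that way: 28.8% of genes with the motif were raised and 38.8% lowered, and of those without it 32.7% and 34.3%. The factors with the motif and raised were Nop2, Nol11, Utp14b, Utp20, Utp25, Utp4 and Tsr1, those lowered were Imp4, Pes1 and Utp18, and Rrp7a did not pass. All 11 but Nop2 and Pes1 were small subunit factors, a role in which 36.0% were raised and 32.0% lowered. After the length and GC correction Nol11, Utp20, Utp25 and Tsr1 were no longer called. Role and motif thus overlapped, and the part of either in this split was not tested. A match is a description of the letters and not of a bound site.

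Stretches around the motif before the start are shown for 2 raised and 2 lowered factors, 5′ to 3′ on the gene's strand, from RefSeq on GRCm38.p6, with the E-box in capitals. The choice of these factors does not mirror the split of 7 raised and 3 lowered among the 11 with the motif. In Tsr1, Utp20, Utp4 and Pes1 the motif lay only after the start, so no stretch could be shown.
Nop2 (chr6:125131778-125131873, + strand, log2 change 0.33): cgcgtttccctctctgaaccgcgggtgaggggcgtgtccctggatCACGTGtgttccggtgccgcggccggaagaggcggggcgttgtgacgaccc
Nol11 (chr11:107189382-107189469, - strand, log2 change 0.19): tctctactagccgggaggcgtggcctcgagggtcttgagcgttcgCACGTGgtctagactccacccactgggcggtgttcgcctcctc
Imp4 (chr1:34439663-34439758, + strand, log2 change -0.53): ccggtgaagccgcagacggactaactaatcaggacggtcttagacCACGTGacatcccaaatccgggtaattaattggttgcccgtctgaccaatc
Utp18 (chr11:93885767-93885831, - strand, log2 change -0.24): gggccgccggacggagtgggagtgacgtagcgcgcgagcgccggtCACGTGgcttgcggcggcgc

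In Nop2 the E-box began 60 bases before the start, in Nol11 43, in Imp4 121 and in Utp18 20. The motif CCGGAAG of ETS factors, searched on both strands and free of overlap with the E-box, was present for 16 of the 46 factors (34.8%), against 9.93% of all genes with a window and 21.7% of tested ones. Of these 16, 9 were lowered and 3 raised, and of the 30 without it 12 and 7. Of all tested genes with the ETS motif 37.1% were lowered and 27.2% raised. The cyclic AMP element TGACGTCA, the same on both strands and able to overlap the E-box at its ends, was found in none of the 46 windows and in 2.03% of all genes with one.

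Overlapping annotation limits single values. Of 57 factors found in the annotation, 22 shared exon positions with a gene on the opposite strand and 4 with a gene on the same strand. The opposite-strand cases were Bop1, Bysl, Dkc1, Imp4, Nhp2, Nol3, Nol7, Nol11, Nop9, Nop14, Nop56, Npm3, Pes1, Polr1a, Rrp1b, Rrp7a, Rrp8, Rrp9, Tsr1, Utp14a, Utp23 and Wdr12. The same-strand cases were Ncl, Nop56, Nop58 and Utp14b. Values of these genes are uncertain to that extent, since the use of strand in counting is not given in the sources used here. Of the 42 factors called, 34 were called the same way with each library left out in turn. These were 25 of the 29 lowered and 9 of the 13 raised.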

How the data were processed

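Per the labels' protocols, TaKaRa RNAiso Plus served to extract the RNA and the CORALL RNA-seq V2 kit to build the libraries. GRCm39 and the tools STAR, fastp, GATK and Salmon appear in the submitters' processing notes. What each tool did, and with which version, is not given in the sources used here. The authors deposited 1 log2 value per symbol and library. From the values, each is log2(x + 1), where x is CPM divided by 1 factor per library (0.937, 0.936, 1.07 and 1.07). Between 92.6% and 93.5% of the low values (up to 1) fell within 0.02 reads of a whole read number, which gave the library totals and a 3-read limit of 0.189 to 0.234 scaled CPM, which covers counting error only.

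Tests used limma 3.58.1 on genes of 1 scaled CPM or more in 2 or more libraries (R 4.3.3, variance trend, group alone, all 4 libraries), and p-values were adjusted over all 11588 genes by Benjamini-Hochberg (threshold 0.05, two-sided). On simulated data for this comparison (11415 genes), 32.7% of genes changed 1.25-fold were called, 72.0% at 1.5-fold, 91.8% at 2-fold and 100% at 4-fold. Only 49 or 50 genes were changed at each fold, and a fixed spread between replicates was assumed. In the real data 67.1% of genes were called, so the adjusted threshold acts differently and these shares do not carry over. Length and GC content are those of the longest coding transcript in GENCODE vM21, an annotation of another build, matched by symbol for 95.1% of the factors. The coding transcript replaced the longest of any kind after a first corrected result had been seen, and both are reported. Members and lists were chosen with earlier results of these data known. Named are up to 4 factors per role with the smallest p, all raised factors, all that did not pass and a set of anchor genes such as Fbl and Ncl, and from each further list up to 3 genes and those moving against the majority.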

Additional observations from a re-analysis of the deposited data

How the results depend on the processing

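When the test asked for a change beyond 1.5-fold, 11 nucleolar factors were lowered and 1 was raised, and of the other biogenesis genes 9 were lowered and 2 raised, where all tested genes gave 8.11% and 8.76%. With total reads only, 21 factors were raised, 33 other biogenesis genes were lowered, the factors' median was 0.050, and 9 factors changed sign under a shift of 0.18 common to all genes, of which Ncl and Nop14 were then called, at 0.19 and 0.15. With total reads without Gm26917 and Lars2, chosen after seeing the data, the median was -0.027. Nop16 changed sign to 0.14 after the length and GC correction and to 0.15 in the same correction with the longest transcript of any kind, added after seeing the data. These corrections gave 11 and 13 raised factors and 28 lowered in each. The cause of these differences was not tested, except that a minimum fold asks for a larger change. With 1 library left out, the median log2 change of the factors was -0.20 to -0.12 and that of the other biogenesis genes -0.23 to -0.17. Over all tested genes the median in these fits was -0.056 to -0.020. Relative log expression factors gave 15 raised and 28 lowered factors, where all tested genes gave 33.7% and 33.5%. With limma-voom on the recovered reads 13 were raised and 29 lowered (all genes 32.0% and 34.7%). No filter gave 10 and 26 (all genes 18.1% and 17.3%). A filter at 5 scaled CPM gave 13 and 29 (all genes 32.4% and 37.6%), and a pseudocount of 0.1 gave 11 and 29 (all genes 31.8% and 34.4%). Same-numbered libraries deviated with a correlation of -0.116 across genes, and no label says that a number marks a shared culture or day. With the replicate number as a block 9 factors were raised and 28 lowered (all genes 31.0% and 33.7%). With the crossed block, added after seeing the data, 15 were raised and 29 lowered (all genes 34.8% and 37.5%). None of the 42 factors called with the deposited scaling and without correction changed sign under any alternative. Ncl, Nop14 and Nop16 were not among these 42. Every tested factor had at least 3.97 scaled CPM in each library. The SE ranged from 0.060 for Nop56 to 0.16 for Utp14b. Small changes can be missed, and the simulation, in which few genes were changed, does not tell how many. Having 2 libraries a group leaves calls near the threshold open to 1 library.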
